A study of Mus musculus with 12 samples.

Results

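The ephrins, semaphorins, slits and netrins are the 4 classical families of guidance ligands, and they are described here with their receptors in the dental epithelium and dental mesenchyme of mouse embryos. A gene belonged to the set when its symbol in the deposited expression table was that of an ephrin (Efna, Efnb), an Eph receptor (Epha, Ephb), a semaphorin (Sema), a plexin (Plxn), a neuropilin (Nrp), a slit, a robo, a netrin (Ntn), an Unc5 receptor or Dcc. The rule used names only and no measured value, and it found 69 of the 34347 genes in the table. Of these, 35 were ligands (8 ephrins, 20 semaphorins, 3 slits and 4 netrins) and 34 were receptors (9 EphA, 5 EphB, 9 plexins, 2 neuropilins, 4 robos, 4 Unc5 genes and Dcc). RNA-seq was made from wild-type C57BL/6 embryos in 4 groups of 3 libraries: E13.5 epithelium, E13.5 mesenchyme, E11.5 epithelium and E11.5 mesenchyme, where E marks the embryonic day. The study asked which genes accompany the capacity to start a tooth, which lies in the epithelium at the earlier stage and in the mesenchyme at the later one. No allele or treatment separates the groups. The E13.5 samples came from tooth germs, incisors and molars together, and the E11.5 samples from mandibles, with dispase to part the tissues, so the stage and the dissected piece cannot be told apart. The labels name pooled RNA without saying what was pooled, and give the libraries as biological replicates, so p-values measure the spread between these libraries.

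Guidance ligands steer growing axons, migrating neural crest cells and sprouting vessels, and many of them also set the borders between neighbouring tissues. Ephrins sit in the membrane and bind Eph receptor tyrosine kinases on the cell next door, with signals passing into both cells. Class 3 semaphorins are secreted and mostly act through a neuropilin joined to an A-type plexin, whereas Sema3e can bind Plxnd1 directly, and the membrane-bound classes bind plexins themselves. Slits act through robo receptors, and netrins through Dcc and the Unc5 receptors. In the developing tooth, semaphorin signalling is known for keeping sensory axons out of the early germ, and Eph and ephrin genes are known for their patterned expression in epithelium and mesenchyme.

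Each library held between 70134554 and 79349382 estimated read counts, of which the 69 genes took between 0.365% and 0.551%. Levels are given in FPKM, fragment counts scaled by transcript length and by library size, which allows genes to be compared with each other. Errors after a mean are SDs over 3 libraries. The labelled tissues were checked with marker lists. All 13 epithelial markers were higher in E11.5 epithelium than in E11.5 mesenchyme and 12 of 13 in E13.5 epithelium than in E13.5 mesenchyme. In E11.5 epithelium replicates 1, 2 and 3 the 15 mesenchymal markers were at a median of 76.7%, 76.1% and 62.0% of their E11.5 mesenchyme level, and 3 of them (Prrx1, Pdgfrb and Col3a1) were called lower. At E13.5 1 library stood apart. E13.5 epithelium replicate 3 carried the 15 mesenchymal markers at a median of 82.5% of their E13.5 mesenchyme level, against 25.1% and 18.0% in replicates 1 and 2, and the 13 epithelial markers at 634% against 1914% and 2611%. In the E11.5 epithelium, 12 neuronal markers reached a median of 961%, 880% and 361% of their level in mesenchyme in replicates 1, 2 and 3. Results that rest on E13.5 epithelium are therefore given with and without replicate 3.

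Most guidance genes were present in all 4 groups. A mean of at least 1 FPKM was reached by 58 of the 69 genes in E13.5 epithelium, 58 in E13.5 mesenchyme, 55 in E11.5 epithelium and, at the same stage, 49 in mesenchyme. The receptors below that level in every group were Epha5, Epha6, Epha8, Epha10, Dcc and Plxnb3, and the ligands Slit1 and Ntn5. The families differed in their summed level. The 8 ephrins summed to 138 ± 15.9 FPKM in the epithelial and 164 ± 10.7 in the mesenchymal libraries at E13.5, and to 146 ± 6.68 in the epithelial and 143 ± 13.48 in the mesenchymal libraries at E11.5. The 20 semaphorins summed to 111 ± 2.21 FPKM in E13.5 epithelium, 113 ± 0.948 in E13.5 mesenchyme, 88.0 ± 3.72 in E11.5 epithelium and, at that stage, 89.4 ± 6.57 in mesenchyme. Slits and netrins were the smaller families. The 3 slits summed to 6.31 ± 4.88 FPKM in E13.5 epithelium, 14.0 ± 1.98 in E13.5 mesenchyme, 6.00 ± 0.824 in the epithelial and 6.96 ± 0.091 in the mesenchymal libraries at E11.5. The 4 netrins summed to 22.4 ± 2.86 FPKM in E13.5 epithelium, 24.96 ± 2.70 in E13.5 mesenchyme, 15.3 ± 1.57 in E11.5 epithelium and, at that stage, 11.52 ± 2.38 in mesenchyme.

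The most abundant ligand of each class was followed library by library. Efnb3, a transmembrane ephrin, was at 13.9, 9.63 and 33.2 FPKM in the epithelial and 34.8, 37.9 and 37.9 in the mesenchymal libraries at E13.5, and at 29.7, 28.3 and 26.9 in the epithelial and 30.5, 35.8 and 35.3 in the mesenchymal libraries at E11.5. Efna4, a lipid-anchored ephrin, was at 23.3, 25.8 and 18.8 FPKM in the epithelial and 18.4, 23.5 and 24.4 in the mesenchymal libraries at E13.5, and at 32.0, 30.4 and 23.6 in the epithelial and 24.0, 31.2 and 34.6 in the mesenchymal libraries at E11.5. Efnb3 was low in replicates 1 and 2 of E13.5 epithelium and at the mesenchymal level in replicate 3, whereas Efna4 overlapped between all groups. Among the secreted class 3 semaphorins, Sema3f was the most abundant, at 28.9, 31.3 and 20.0 FPKM in the epithelial and 14.7, 18.0 and 19.8 in the mesenchymal libraries at E13.5, and at 17.2, 17.8 and 15.1 in the epithelial and 14.2, 18.5 and 20.2 in the mesenchymal libraries at E11.5. It was higher in every E13.5 epithelium library than in any E13.5 mesenchyme library, by a small margin in replicate 3. Of the membrane-bound semaphorins, Sema4c was at 10.5, 10.2 and 14.4 FPKM in the epithelial and 16.5, 13.7 and 12.2 in the mesenchymal libraries at E13.5, and at 14.8, 15.6 and 16.3 in the epithelial and 19.5, 19.8 and 21.2 in the mesenchymal libraries at E11.5.

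The leading members of the other membrane-bound classes were lower. Sema5a was at 6.07, 5.18 and 11.7 FPKM in the epithelial and 15.0, 13.3 and 12.8 in the mesenchymal libraries at E13.5, and at 6.31, 6.18 and 8.36 in the epithelial and 9.59, 8.29 and 8.12 in the mesenchymal libraries at E11.5. Sema6c was at 4.49, 4.40 and 7.13 FPKM in the epithelial and 7.94, 9.25 and 10.2 in the mesenchymal libraries at E13.5, and at 9.24, 9.02 and 6.15 in the epithelial and 7.995, 10.1 and 11.4 in the mesenchymal libraries at E11.5. For both, the 3 E13.5 mesenchyme libraries lay above the 3 E13.5 epithelium libraries. Sema7a, the only member of its lipid-anchored class, was at 0.934, 0.363 and 2.02 FPKM in the epithelial and 2.38, 3.07 and 2.39 in the mesenchymal libraries at E13.5, and at 1.74, 1.76 and 1.87 in the epithelial and 1.77, 1.37 and 1.57 in the mesenchymal libraries at E11.5. Slit3 was the leading slit, at 2.97, 1.72 and 8.69 FPKM in the epithelial and 11.9, 11.3 and 8.97 in the mesenchymal libraries at E13.5, and at 3.89, 4.23 and 4.66 in the epithelial and 5.18, 5.53 and 5.57 in the mesenchymal libraries at E11.5. Its 3 E13.5 mesenchyme values were the highest of the 4 groups, and replicate 3 of E13.5 epithelium came close to them.

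Among the receptors, Plxnb2 and Ephb4 were the most abundant. Plxnb2, a receptor of class 4 semaphorins, was at 42.0, 45.7 and 44.5 FPKM in the epithelial and 48.1, 50.3 and 48.9 in the mesenchymal libraries at E13.5, and at 40.4, 39.9 and 43.6 in the epithelial and 43.7, 49.0 and 53.9 in the mesenchymal libraries at E11.5. Ephb4, the receptor of Efnb2 that is best known from veins, was at 35.4, 35.8 and 43.4 FPKM in the epithelial and 46.0, 54.9 and 53.7 in the mesenchymal libraries at E13.5, and at 46.6, 43.4 and 36.8 in the epithelial and 41.5, 51.1 and 55.5 in the mesenchymal libraries at E11.5. Both genes spanned less than a 1.5-fold range of group means. Plxna1, a partner of the neuropilins, was at 17.8, 20.2 and 16.1 FPKM in the epithelial and 17.8, 19.3 and 17.0 in the mesenchymal libraries at E13.5, and at 14.2, 14.0 and 15.6 in the epithelial and 13.8, 15.8 and 16.5 in the mesenchymal libraries at E11.5. Epha4, which binds ephrins of both classes, was at 10.5, 12.2 and 15.9 FPKM in the epithelial and 21.2, 12.5 and 12.6 in the mesenchymal libraries at E13.5, and at 9.42, 8.87 and 12.5 in the epithelial and 17.6, 15.1 and 14.7 in the mesenchymal libraries at E11.5. The tissues overlapped at E13.5 and did not overlap at E11.5. Robo1 was at 5.99, 5.79 and 10.03 FPKM in the epithelial and 12.2, 11.4 and 9.87 in the mesenchymal libraries at E13.5, and at 7.39, 6.83 and 9.27 in the epithelial and 14.0, 11.48 and 10.6 in the mesenchymal libraries at E11.5. Unc5b, known from vessels, was at 6.39, 7.92 and 5.96 FPKM in the epithelial and 9.39, 9.31 and 6.90 in the mesenchymal libraries at E13.5, and at 7.07, 7.14 and 8.35 in the epithelial and 10.7, 9.88 and 10.6 in the mesenchymal libraries at E11.5. The highest Unc5b values were therefore those of E11.5 mesenchyme.

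**Figure D1:**
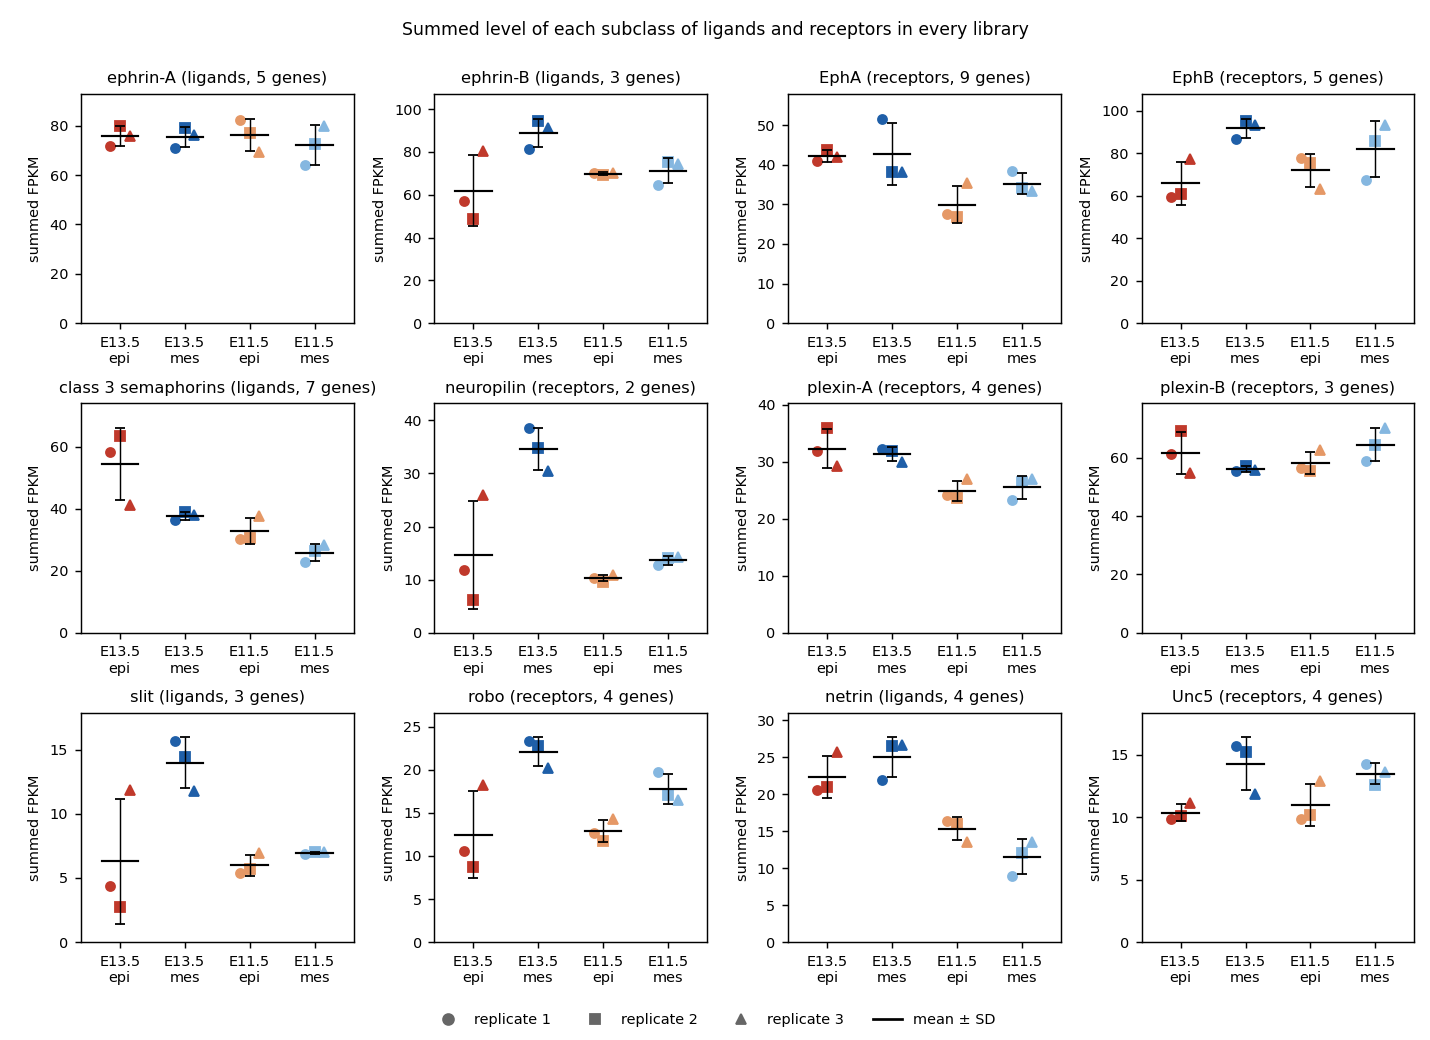
Summed FPKM (y axis) of 12 subclasses of guidance ligands and receptors in each library (x axis: E13.5 epithelium, E13.5 mesenchyme, E11.5 epithelium, E11.5 mesenchyme), with the mean of 3 libraries as a horizontal line and the SD as an error bar. The neuropilin, slit and ephrin-B sums of E13.5 epithelium replicate 3 (triangle) lie nearer to E13.5 mesenchyme than those of replicates 1 and 2, and the class 3 semaphorins have their highest mean, 54.4 FPKM, in E13.5 epithelium.

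The first comparison asked how the epithelium differed from the mesenchyme at E11.5, when the epithelium can start a tooth. A gene was called when its p-value from edgeR's quasi-likelihood test, adjusted by the Benjamini-Hochberg method over all genes tested, was under 0.05, and a fold change is given as log2 ± its standard error. Where called genes are said not to overlap between groups, this describes values that the test had already selected and is no further support. In E11.5 epithelium against E11.5 mesenchyme, 10 guidance genes were higher and 4 lower of the 68 tested (Ntn5 was too low), against 4.75% higher and 1.63% lower of all 20063 genes tested. The genes higher in epithelium were 6 ligands, namely Sema3c, Sema3d, Sema3e, Ntn1, Ntn4 and Efna1, and 4 receptors, Epha1, Epha10, Dcc and Unc5a. The genes lower in epithelium were the ligand Sema6d and the receptors Nrp2, Plxnd1 and Robo4. The median log2 fold change was 0.15 over the 68 genes and 0.009 over all genes tested. In bulk tissue, fewer cells of a type and less RNA per cell cannot be told apart.

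Of the 7 secreted class 3 semaphorins, 3 were higher in E11.5 epithelium and none lower. Sema3d was at 3.13, 3.21 and 6.16 FPKM in the epithelial and 0.468, 0.435 and 0.411 in the mesenchymal libraries at E11.5, a log2 fold change of 3.29 ± 0.30 (adjusted p = 0.000752). Sema3e, the ligand of Plxnd1, was at 0.258, 0.211 and 0.499 FPKM in the epithelial and 0.060, 0.044 and 0.028 in the mesenchymal libraries at E11.5, a log2 fold change of 2.87 ± 0.46 (adjusted p = 0.0101). Sema3c was at 2.95, 2.64 and 6.27 FPKM in the epithelial and 1.26, 0.778 and 0.878 in the mesenchymal libraries at E11.5, a log2 fold change of 2.06 ± 0.38 (adjusted p = 0.0187). In all 3 genes the tissues did not overlap, and epithelium replicate 3 had the highest value. Among the epithelium libraries, replicate 3 had the lowest neuronal, glial, muscle, erythroid, macrophage, mesenchymal and epithelial marker sums. Its endothelial and cartilage and bone marker sums were the highest. The part of these cell types in the results was not tested. The other 4 class 3 semaphorins, Sema3a, Sema3b, Sema3f and Sema3g, were not called. Sema3c, Sema3d and Sema3e lie with Sema3a on 5.35 Mb of chromosome 5 (positions 12383385 to 17730268, mm10). Sema3a, which lies between Sema3d and Sema3e, was at 4.80, 4.63 and 7.51 FPKM in the epithelial and 5.52, 4.55 and 4.86 in the mesenchymal libraries at E11.5, and these values overlapped.

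Sequences upstream of the start sites are shown for Sema3d and Sema3e, the ligands with the widest tissue difference, and for Epha1, the receptor called in both tissue comparisons. They run 5′ to 3′ on the strand of the gene, 200 bases that end 51 bases before the RefSeq start, on GRCm38.p6. The windows are chr5:12382916-12383115 (plus strand) for Sema3d, chr5:14025026-14025225 (plus strand) for Sema3e and chr6:42373319-42373518 (minus strand) for Epha1, and none overlaps an exon of the GENCODE annotation used. Capitals mark any match, on either strand, to 4 motifs: CAGGTG (the E-box of Snail and Zeb factors), CTTTGA (the core of Tcf/Lef sites), GGGCGG (the GC box) and TATAAA (the TATA box).
Sema3d: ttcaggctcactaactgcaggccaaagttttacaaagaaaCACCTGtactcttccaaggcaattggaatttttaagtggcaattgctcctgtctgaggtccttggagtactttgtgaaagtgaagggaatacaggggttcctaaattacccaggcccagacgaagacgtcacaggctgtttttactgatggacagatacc
Sema3e: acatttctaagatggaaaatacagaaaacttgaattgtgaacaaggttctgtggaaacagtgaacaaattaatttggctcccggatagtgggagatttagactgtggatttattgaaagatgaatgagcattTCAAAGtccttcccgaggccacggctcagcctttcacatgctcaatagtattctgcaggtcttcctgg
Epha1: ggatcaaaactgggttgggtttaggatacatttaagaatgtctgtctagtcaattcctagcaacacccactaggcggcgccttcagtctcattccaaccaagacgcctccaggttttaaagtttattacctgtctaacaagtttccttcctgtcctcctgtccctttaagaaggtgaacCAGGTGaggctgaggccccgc
Counted from the start, the Sema3d window held 1 E-box at -210, the Epha1 window 1 E-box at -71 and the Sema3e window 1 Tcf/Lef core at -118. Over all 32851 RefSeq windows of this length, 14.4% held CAGGTG, 11.8% CTTTGA, 24.6% GGGCGG and 9.14% TATAAA. These 3 windows had 2, 3 and 4 CpG dinucleotides in the order printed, against a median of 12 in the 75 windows of the 59 guidance genes that matched the RefSeq table and 4 in all windows. Of those 75 windows, 43 held a GC box, 9 an E-box and 3 a Tcf/Lef core, and 0 held a TATA box.

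Ntn1, Ntn4 and 2 netrin receptors were on the epithelial side at E11.5. Ntn1, the founding netrin, was at 6.56, 6.53 and 6.30 FPKM in the epithelial and 2.79, 3.13 and 3.30 in the mesenchymal libraries at E11.5, a log2 fold change of 1.13 ± 0.09 (adjusted p = 0.000359). Ntn4, a basement membrane netrin, was at 0.968, 1.15 and 1.10 FPKM in the epithelial and 0.385, 0.375 and 0.369 in the mesenchymal libraries at E11.5, a log2 fold change of 1.55 ± 0.20 (adjusted p = 0.004). The 2 groups did not overlap for either gene. The attractive netrin receptor Dcc was much lower, at 0.409, 0.472 and 0.647 FPKM in the epithelial and 0.180, 0.106 and 0.091 in the mesenchymal libraries at E11.5 (2.05 ± 0.35, adjusted p = 0.0132). Unc5a, a repulsive netrin receptor, was at 0.646, 0.972 and 0.936 FPKM in the epithelial and 0.236, 0.136 and 0.385 in the mesenchymal libraries at E11.5 (1.81 ± 0.38, adjusted p = 0.0312). Dcc and Unc5a are also neuronal genes, and 8 of the 12 neuronal markers were higher in E11.5 epithelium. The 12 markers summed to 220, 218 and 83.1 FPKM in E11.5 epithelium replicates 1, 2 and 3, against 45.9 to 57.7 FPKM in E11.5 mesenchyme. Neither Dcc nor Unc5a was lowest in replicate 3, and Dcc was highest there. The part of neuronal RNA in these results was not tested.

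Of the ephrin family, 3 members were called at E11.5. Efna1, a ligand of EphA receptors, was at 13.4, 12.3 and 12.9 FPKM in the epithelial and 7.32, 7.72 and 7.43 in the mesenchymal libraries at E11.5 (0.83 ± 0.10, adjusted p = 0.00344). Its receptor Epha1 was at 4.39, 4.81 and 5.05 FPKM in the epithelial and 1.55, 1.17 and 1.09 in the mesenchymal libraries at E11.5 (1.94 ± 0.20, adjusted p = 0.00128). This ligand and receptor pair was therefore higher in the same tissue, with no overlap between the groups. Epha10, which lacks kinase activity, was low in both tissues, at 0.297, 0.319 and 0.213 FPKM in the epithelial and 0.095, 0.081 and 0.057 in the mesenchymal libraries at E11.5 (1.86 ± 0.33, adjusted p = 0.016). The other 7 ephrins and the 5 EphB receptors were not called.

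The 4 members lower in E11.5 epithelium had log2 fold changes between -0.39 and -0.89. Robo4, a robo of blood vessels, was at 2.10, 1.79 and 2.18 FPKM in the epithelial and 3.67, 3.84 and 4.14 in the mesenchymal libraries at E11.5 (-0.89 ± 0.12, adjusted p = 0.00529). Plxnd1, the Sema3e receptor of endothelium, was at 12.2, 11.6 and 13.3 FPKM in the epithelial and 18.3, 19.0 and 19.7 in the mesenchymal libraries at E11.5 (-0.57 ± 0.09, adjusted p = 0.00878). Of the 12 endothelial markers, 4 were also lower in E11.5 epithelium, with summed levels of 47.3 to 52.7 FPKM against 65.5 to 73.1 FPKM in E11.5 mesenchyme, and their part in these results was not tested. Nrp2, a receptor of Sema3c and Sema3f, was at 7.98, 7.54 and 8.06 FPKM in the epithelial and 9.82, 11.01 and 11.3 in the mesenchymal libraries at E11.5 (-0.39 ± 0.08, adjusted p = 0.0249). Sema6d, a transmembrane ligand of Plxna1, was at 1.66, 1.76 and 1.79 FPKM in the epithelial and 2.37, 2.62 and 2.56 in the mesenchymal libraries at E11.5 (-0.49 ± 0.10, adjusted p = 0.0271). The epithelium libraries lay below the mesenchyme libraries in all 4 genes.

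The number of calls at E11.5 depended on single libraries. It was 30 (17 higher and 13 lower, background 17.8%) without epithelium replicate 3, 9 without epithelium replicate 2 (3.05%), 6 without mesenchyme replicate 2 (2.78%) and 9 without mesenchyme replicate 3 (3.10%), against 14 with all libraries. Sema3d, Ntn1, Ntn4, Efna1, Epha1 and Robo4 were called whichever library was left out, and the other 8 calls were lost at least once. Sema3e was lost in 1 of 6 cases (without mesenchyme replicate 2), Sema3c, Dcc and Plxnd1 in 2, Unc5a and Epha10 in 4, and Nrp2 and Sema6d in 5. In 1 edgeR fit over all 12 libraries, Robo4 (adjusted p = 0.395), Plxnd1, Nrp2 and Epha10 were not called. Of the 14 calls, 5 were kept in all 9 alternative fits listed under the processing. In the names of the deposited columns 4 libraries carried no number, 1 in each group. They were epithelium replicate 3 and mesenchyme replicate 1 at both stages. Among them are the E13.5 epithelium library that stood apart and the E11.5 epithelium library with the lowest neuronal markers. Whether they were handled separately is not stated. With that property as a covariate 34 of 68 genes were called (19 higher and 15 lower, background 19.8%).

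**Figure D2:**
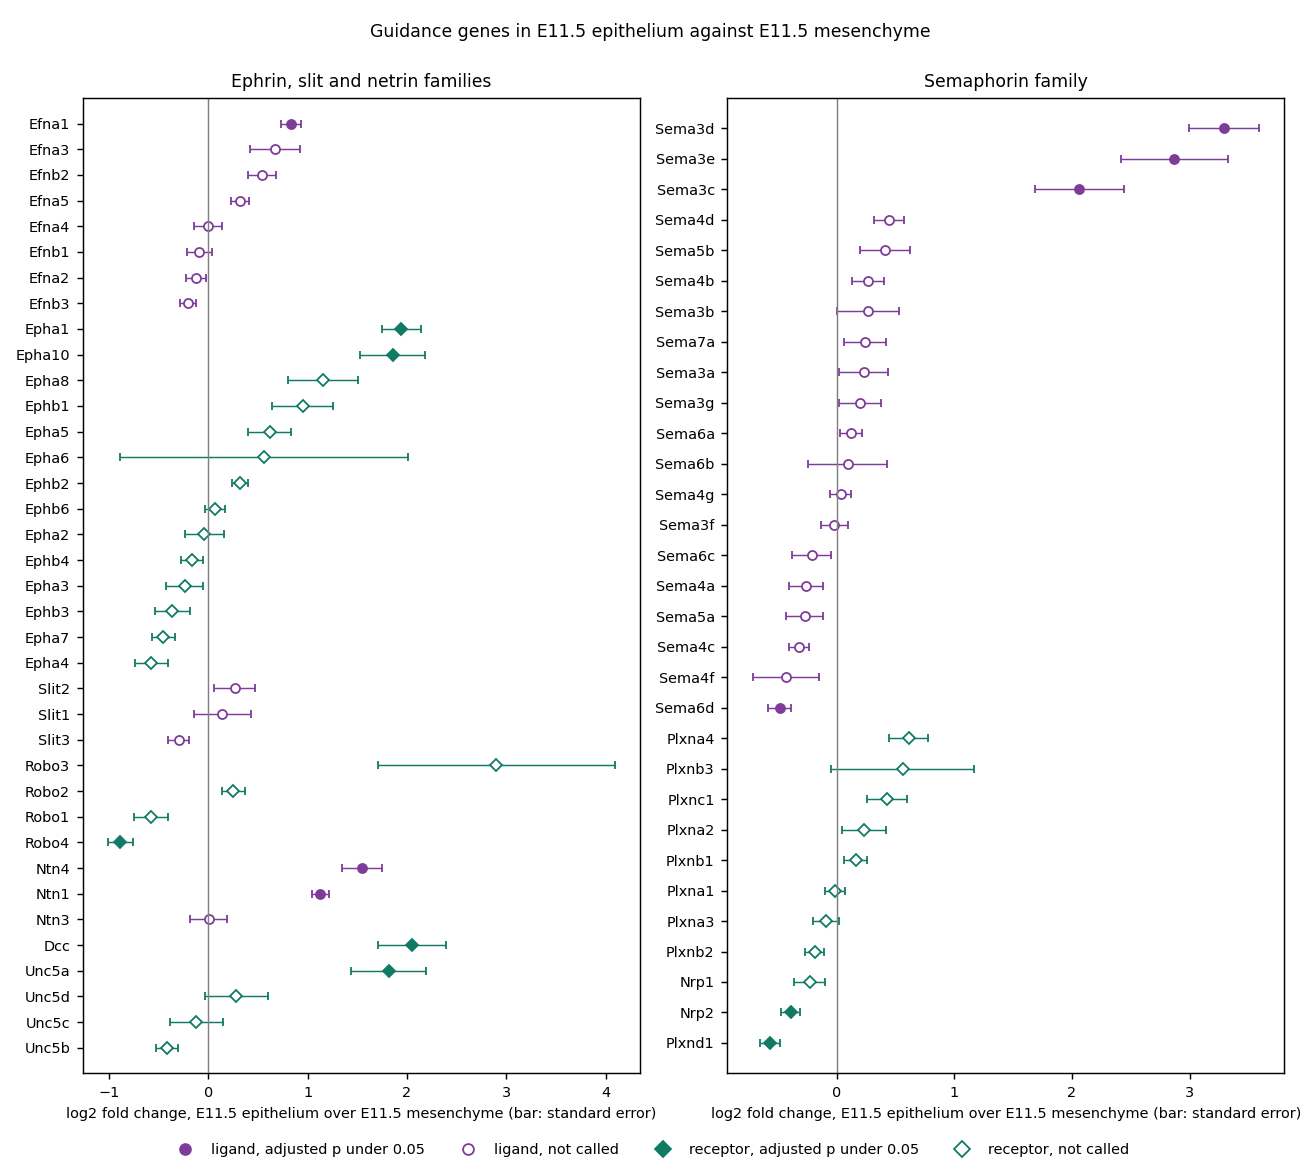
log2 fold change (x axis) of each guidance gene in E11.5 epithelium over E11.5 mesenchyme, with the standard error as a bar. Circles are ligands, diamonds are receptors and filled symbols have an adjusted p under 0.05; Sema3d lies farthest to the right of the filled symbols at 3.29 and Robo4 farthest to the left at -0.89.

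At E13.5 the comparison of the tissues rested on 1 library. With all 6 libraries, Epha1 was higher in epithelium and no guidance gene was lower of the 69 tested, against 1.62% higher and 0.204% lower of 20584 genes tested with edgeR. At an unadjusted p under 0.05 the number of guidance genes was 33 (background 23.6%), DESeq2 called 8 higher and 10 lower (background 10.7%), and limma called 0 (background 0.00%). Without E13.5 epithelium replicate 3, 12 guidance genes were higher and 36 lower, against 12.5% higher and 15.7% lower of the 21466 genes then tested. Among the 35 ligands 8 were then higher and 17 lower, and among the 34 receptors 4 were higher and 19 lower. The median log2 fold change of the 69 genes was -0.43 with all libraries and -0.58 without replicate 3, against -0.008 and -0.016 over all genes tested. Fold changes without replicate 3 are marked as such below, and they rest on 2 epithelium libraries.

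Replicate 3 lay nearer to the mesenchyme than the other epithelium libraries for most guidance genes. Of the 58 genes with at least 1 FPKM in E13.5 mesenchyme, 46 had a log2 ratio to the mesenchyme mean nearer to 0 in replicate 3 than in both replicates 1 and 2. The median absolute log2 ratio of these genes was 0.90 in replicate 1, 1.03 in replicate 2 and 0.23 in replicate 3. The same values were not computed over all genes, so they do not show a trait particular to the guidance genes. The mesenchymal markers of replicate 3 moved in the same direction, as given above, and their part in the guidance values was not tested.

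**Figure D3:**
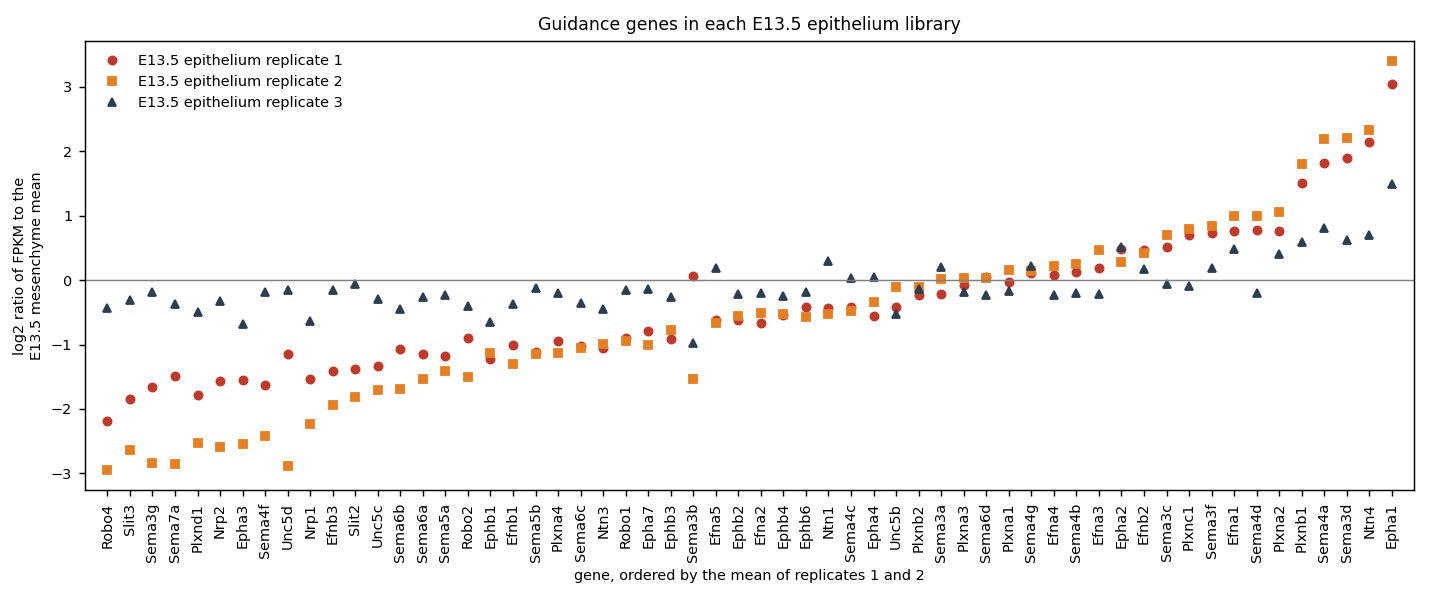
log2 ratio (y axis) of the FPKM in each E13.5 epithelium library to the mean of the 3 E13.5 mesenchyme libraries for 58 guidance genes (x axis), ordered by the mean of replicates 1 and 2. Replicate 3 (dark triangles) has a median absolute log2 ratio of 0.23, against 0.90 and 1.03 in replicates 1 and 2 (circles and squares).

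The genes on the epithelial side at E13.5 were led by Epha1. It was at 17.0, 21.8 and 5.83 FPKM in the epithelial and 2.31, 1.95 and 1.93 in the mesenchymal libraries at E13.5, so that each epithelium library lay above the mesenchyme. Its log2 fold change was 2.86 ± 0.45 (adjusted p = 0.0399) with all libraries and 3.23 ± 0.16 (adjusted p = 5.82e-05) without replicate 3, and the call was lost whenever any other library was left out. Ntn4 was at 5.90, 6.72 and 2.18 FPKM in the epithelial and 1.124, 1.28 and 1.61 in the mesenchymal libraries at E13.5, 1.901 ± 0.40 (adjusted p = 0.0657) with all libraries and 2.25 ± 0.18 (adjusted p = 0.000252) without replicate 3. The remaining genes higher without replicate 3 were the ligands Sema3c, Sema3d, Sema3f, Sema4a, Sema4d, Efna1 and Efnb2 and the receptors Plxna2, Plxnb1 and Plxnc1. Sema3d was at 12.02, 15.0 and 5.01 FPKM in the epithelial and 3.79, 3.43 and 2.51 in the mesenchymal libraries at E13.5 (2.06 ± 0.20 without replicate 3), and Sema4a at 5.04, 6.57 and 2.53 FPKM in epithelium and 1.59, 1.33 and 1.38 in mesenchyme (2.01 ± 0.17). Plxnb1, a plexin that binds Sema4d, was at 19.1, 23.3 and 10.1 FPKM in the epithelial and 6.94, 6.73 and 6.37 in the mesenchymal libraries at E13.5 (1.67 ± 0.13 without replicate 3). For all of these named with values, replicate 3 was the lowest epithelium library.

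The genes on the mesenchymal side at E13.5 included both neuropilins, the vessel-associated genes Robo4, Plxnd1 and Sema3g, and all 5 EphB receptors, in the fit without replicate 3. Unc5b, also known from vessels, was not called in that fit (-0.25 ± 0.18, adjusted p = 0.359). Efnb2, the ligand of Ephb4, was higher in epithelium in the same fit (0.45 ± 0.10, adjusted p = 0.0162). Robo4 was at 0.926, 0.548 and 3.14 FPKM in the epithelial and 3.49, 4.67 and 4.498 in the mesenchymal libraries at E13.5, -2.51 ± 0.26 (adjusted p = 0.000688) without replicate 3. Plxnd1 was at 7.42, 4.42 and 18.0 FPKM in the epithelial and 23.1, 28.3 and 24.9 in the mesenchymal libraries at E13.5, -2.10 ± 0.23 (adjusted p = 0.000755) without replicate 3. Sema3g, an endothelial class 3 semaphorin, was at 0.768, 0.338 and 2.12 FPKM in the epithelial and 2.49, 2.33 and 2.42 in the mesenchymal libraries at E13.5, -2.12 ± 0.35 (adjusted p = 0.00411) without replicate 3. The 12 endothelial markers summed to 32.8, 16.4 and 86.2 FPKM in the 3 E13.5 epithelium libraries, against 105 to 115 FPKM in E13.5 mesenchyme. This was the order of Robo4, Plxnd1 and Sema3g over these libraries. The mesenchymal (448, 292 and 1171 FPKM), cartilage and bone, muscle, macrophage and neuronal marker sums had that order too. The glial, erythroid and epithelial marker sums did not. The part of these cell types in the results was not tested. Slit3 (values above) was -2.19 ± 0.26 (adjusted p = 0.00108) without replicate 3. Epha8, at 0.123, 0.177 and 0.420 FPKM in the epithelial and 0.402, 0.829 and 1.10 in the mesenchymal libraries at E13.5, was -2.35 ± 0.48 (adjusted p = 0.00997) without replicate 3. Ntn5 was at 0.132, 0.049 and 0.231 FPKM in the epithelial and 0.276, 0.431 and 0.530 in the mesenchymal libraries at E13.5, -2.15 ± 0.59 (adjusted p = 0.0321) without replicate 3. With all 6 libraries, none of these genes passed the threshold.

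Both neuropilins were lower in E13.5 epithelium without replicate 3. Nrp1 was at 3.70, 2.27 and 6.87 FPKM in the epithelial and 10.5, 10.2 and 11.4 in the mesenchymal libraries at E13.5, and Nrp2 at 8.10, 3.97 and 19.1 FPKM in epithelium and 27.99, 24.5 and 19.1 in mesenchyme. Without replicate 3, Nrp1 was -1.84 ± 0.20 (adjusted p = 0.00077) and Nrp2 was -1.99 ± 0.32 (adjusted p = 0.00383), while of the class 3 semaphorins Sema3c, Sema3d and Sema3f were higher in epithelium, Sema3g was lower, and Sema3a, Sema3b and Sema3e were not called. Their plexin partners Plxna1 and Plxna3 were called in neither fit, and Plxna4 was lower and Plxna2 higher in epithelium without replicate 3.

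**Figure D4:**
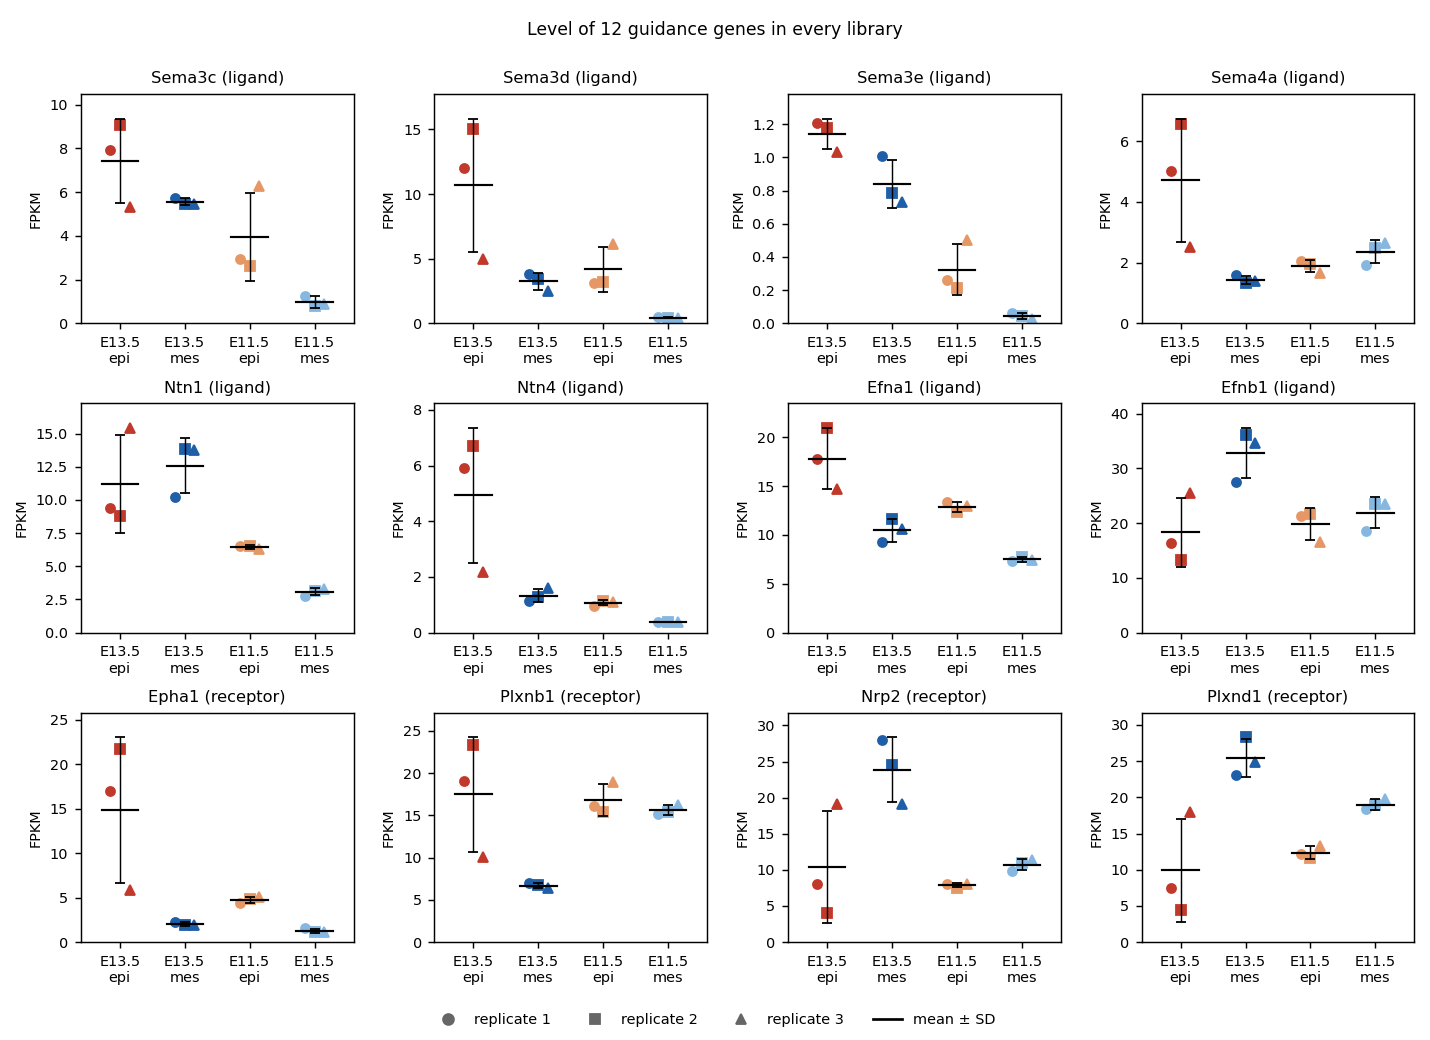
FPKM (y axis) of 12 guidance genes in every library (x axis: E13.5 epithelium, E13.5 mesenchyme, E11.5 epithelium, E11.5 mesenchyme), with the mean of 3 libraries as a horizontal line and the SD as an error bar. E13.5 epithelium replicate 3 (triangle) lies nearer to the E13.5 mesenchyme mean than replicates 1 and 2 in all 12 panels, and Epha1 is 17.0, 21.8 and 5.83 FPKM in the E13.5 epithelium against 1.93 to 2.31 FPKM in E13.5 mesenchyme.

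The largest number of calls came from the change of the mesenchyme with stage. This comparison asked how the mesenchyme that can start a tooth at E13.5 differed from its E11.5 state. In E13.5 mesenchyme against E11.5 mesenchyme, 41 guidance genes were higher and 6 lower of 69 tested, against 22.0% higher and 17.0% lower of 20271 genes tested. Of the 35 ligands 23 were higher and 5 lower, and of the 34 receptors 18 were higher and 1 lower. The median log2 fold change was 0.62 over the guidance genes and 0.012 over all genes tested. When a log2 fold change of 1 or more in size was also required, 25 genes were called, against 16.1% of all genes. Of the 47 calls, 37 were kept whichever of the 6 libraries was left out, and the count then ran between 38 and 46. The 10 calls lost at least once in this way were Efna1, Efna4, Efnb2, Epha1, Epha3, Ephb6, Sema4b, Sema7a, Slit1 and Unc5a. In all 9 alternative fits listed under the processing, 31 of the 47 calls were kept.

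Of the 7 class 3 semaphorins, 5 rose in the mesenchyme and none fell. Sema3e was at 1.01, 0.788 and 0.728 FPKM in E13.5 mesenchyme and 0.060, 0.044 and 0.028 in E11.5 mesenchyme, a log2 fold change of 4.17 ± 0.33 (adjusted p = 3.94e-05). Sema3d was at 3.79, 3.43 and 2.51 FPKM in E13.5 mesenchyme and 0.468, 0.435 and 0.411 in E11.5 mesenchyme (2.85 ± 0.19, adjusted p = 1.94e-05). Sema3b was at 2.33, 3.51 and 2.35 FPKM in E13.5 mesenchyme and 0.357, 0.473 and 0.417 in E11.5 mesenchyme (2.67 ± 0.23, adjusted p = 5.77e-05). Sema3c also rose (2.48 ± 0.20, adjusted p = 4.58e-05), and Sema3g rose by less (0.80 ± 0.18, adjusted p = 0.00684). Sema3a and Sema3f were not called, with log2 fold changes of 0.12 ± 0.14 and -0.04 ± 0.13. Sema3a was thus called neither here nor between the E11.5 tissues, and its difference from its 3 neighbours on chromosome 5 was not tested. Sema3c, Sema3d and Sema3e, which were higher in epithelium at E11.5, were at 5.47 to 5.75, 2.51 to 3.79 and 0.728 to 1.01 FPKM in E13.5 mesenchyme.

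Both neuropilins and 4 plexins rose with the ligands. Nrp1 was at 10.5, 10.2 and 11.4 FPKM in E13.5 mesenchyme and 2.87, 3.01 and 2.93 in E11.5 mesenchyme (1.84 ± 0.09, adjusted p = 4.22e-06), and Nrp2 was at 27.99, 24.5 and 19.1 FPKM at E13.5 and 9.82, 11.01 and 11.3 at E11.5 (1.13 ± 0.14, adjusted p = 0.000408). Plxna4, a partner of Nrp1 in sensory axons, rose (1.78 ± 0.11), as did Plxnc1, the receptor of Sema7a, at 1.78, 2.29 and 2.15 FPKM in E13.5 mesenchyme and 0.517, 0.641 and 0.739 in E11.5 mesenchyme (1.69 ± 0.16, adjusted p = 0.000111). Plxnd1 rose by less (0.39 ± 0.10, adjusted p = 0.0125). Plxnb3 was at 0.269, 0.249 and 0.554 FPKM in E13.5 mesenchyme and 0.023, 0.026 and 0.035 in E11.5 mesenchyme (3.61 ± 0.42, adjusted p = 0.000291), a large ratio of very low levels. Plxna1, Plxna2, Plxna3 and Plxnb2 were not called.

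The exceptions that fell with stage were Plxnb1 and 5 ligands. Plxnb1 was at 6.94, 6.73 and 6.37 FPKM in E13.5 mesenchyme and 15.2, 15.4 and 16.3 in E11.5 mesenchyme, and every E13.5 library lay below every E11.5 library (-1.25 ± 0.08, adjusted p = 1.85e-05). Sema4a was at 1.59, 1.33 and 1.38 FPKM in E13.5 mesenchyme and 1.93, 2.49 and 2.66 in E11.5 mesenchyme (-0.74 ± 0.15, adjusted p = 0.00501), and Sema4c fell as well (-0.54 ± 0.12, adjusted p = 0.00799). The other 2 called members of class 4, Sema4b and Sema4d, rose (0.58 ± 0.14 and 0.69 ± 0.16). Slit1 was at 0.206, 0.221 and 0.246 FPKM in E13.5 mesenchyme and 0.584, 0.388 and 0.339 in E11.5 mesenchyme (-1.001 ± 0.30, adjusted p = 0.0277), and this call was lost in 5 of 6 cases when a library was left out. Efna2 was at 17.3, 19.4 and 17.9 FPKM in E13.5 mesenchyme and 22.5, 22.9 and 25.7 in E11.5 mesenchyme (-0.41 ± 0.09, adjusted p = 0.00804). Efna4 changed by a similar amount (-0.46 ± 0.14, adjusted p = 0.028), and its call was lost in 4 of 6 cases.

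The upstream windows of Sema4a and Plxnb1 are shown because these members fell in the mesenchyme and were higher in E13.5 epithelium than in E13.5 mesenchyme in the fit without replicate 3. They are chr3:88461233-88461432 (minus strand) for Sema4a and chr9:109095186-109095385 (plus strand) for Plxnb1, drawn and marked as above.
Sema4a: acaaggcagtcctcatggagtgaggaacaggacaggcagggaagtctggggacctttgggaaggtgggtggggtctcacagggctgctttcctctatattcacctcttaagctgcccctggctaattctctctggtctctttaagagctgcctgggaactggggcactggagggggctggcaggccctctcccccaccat
Plxnb1: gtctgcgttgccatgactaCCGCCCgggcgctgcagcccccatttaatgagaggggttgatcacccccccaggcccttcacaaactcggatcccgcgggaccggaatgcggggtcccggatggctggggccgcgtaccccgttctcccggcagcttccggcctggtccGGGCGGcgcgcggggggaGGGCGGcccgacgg
The Sema4a window held none of the 4 motifs and 0 CpG dinucleotides. The Plxnb1 window held 3 GC boxes, at -231, -82 and -64, and 23 CpG dinucleotides, and it overlaps 1 exon of a neighbouring gene, Gm7628.

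In the mesenchyme 3 of 4 netrins and 3 of 5 netrin receptors rose. Ntn1 was at 10.2, 13.8 and 13.7 FPKM in E13.5 mesenchyme and 2.79, 3.13 and 3.30 in E11.5 mesenchyme (2.01 ± 0.13, adjusted p = 1.51e-05), and Ntn4 at 1.124, 1.28 and 1.61 FPKM at E13.5 and 0.385, 0.375 and 0.369 at E11.5 (1.78 ± 0.22, adjusted p = 0.000374). Ntn5 was at 0.276, 0.431 and 0.530 FPKM in E13.5 mesenchyme and 0.048, 0.047 and 0 in E11.5 mesenchyme (3.61 ± 0.88, adjusted p = 0.0112), with counts of 0 to 10 in the earlier libraries. Ntn3 was not called. Dcc was at 0.901, 0.692 and 0.760 FPKM in E13.5 mesenchyme and 0.180, 0.106 and 0.091 in E11.5 mesenchyme (2.59 ± 0.30, adjusted p = 0.000272), and Unc5d at 2.48, 1.95 and 1.38 FPKM at E13.5 and 0.120, 0.238 and 0.292 at E11.5 (3.15 ± 0.33, adjusted p = 0.000172). Unc5a rose too (1.75 ± 0.45, adjusted p = 0.0144), but its lowest E13.5 value, in replicate 1, lay close to the highest E11.5 value, and the call was lost without E13.5 mesenchyme replicate 2. The more abundant Unc5b and Unc5c were not called (-0.31 ± 0.14 and 0.12 ± 0.18).

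Of the slits and robos, 3 genes rose and 1 fell. Slit2 rose to 3.62, 2.91 and 2.60 FPKM in E13.5 mesenchyme, against 1.08, 1.10 and 1.09 in E11.5 mesenchyme (1.45 ± 0.14, adjusted p = 9.08e-05), and Slit3 also rose (0.96 ± 0.13, adjusted p = 0.000523). Among the robos, Robo2 was at 7.58, 6.66 and 5.78 FPKM in E13.5 mesenchyme and 1.66, 1.70 and 1.71 in E11.5 mesenchyme (1.95 ± 0.12, adjusted p = 1.29e-05). Robo1, Robo3 and Robo4 were not called.

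In the ephrin family the changes in mesenchyme were moderate, apart from a few low genes. Efna3 was at 5.63, 6.41 and 6.86 FPKM in E13.5 mesenchyme and 1.06, 1.68 and 2.15 in E11.5 mesenchyme (1.94 ± 0.23, adjusted p = 0.000281), Efna5 also rose (0.94 ± 0.11), and Efna1, Efnb1 and Efnb2 rose by 0.46, 0.56 and 0.28 on the log2 scale. Of the receptors, 8 of 14 rose and none fell. The largest change was that of Epha8, at 0.402, 0.829 and 1.10 FPKM in E13.5 mesenchyme and 0.125, 0.10 and 0.172 in E11.5 mesenchyme (2.51 ± 0.40, adjusted p = 0.00142), and Ephb1 followed at 2.24, 2.28 and 2.06 FPKM at E13.5 and 0.395, 0.786 and 0.699 at E11.5 (1.79 ± 0.23, adjusted p = 0.000455). The abundant receptors Epha4, Ephb3 and Ephb4 were not called.

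Markers of several other cell types rose in the mesenchyme over the same interval. Higher in E13.5 mesenchyme were 9 of 10 cartilage and bone genes, 9 of 10 muscle genes, 9 of 10 macrophage genes and 10 of 12 endothelial genes. So were 5 of 8 glial genes, 9 of 13 epithelial genes and 5 of the 11 neuronal genes tested. Of the 8 erythroid genes 2 were higher and 4 lower, and of the 15 mesenchymal markers 10 were higher and 3 lower. The summed level ran from 338 to 519 FPKM in E13.5 mesenchyme against 81.9 to 98.3 FPKM in E11.5 mesenchyme for cartilage and bone, from 273 to 546 against 26.7 to 78.1 FPKM for muscle and from 105 to 115 against 65.5 to 73.1 FPKM for endothelium. Their part in the guidance results was not tested.

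**Figure D5:**
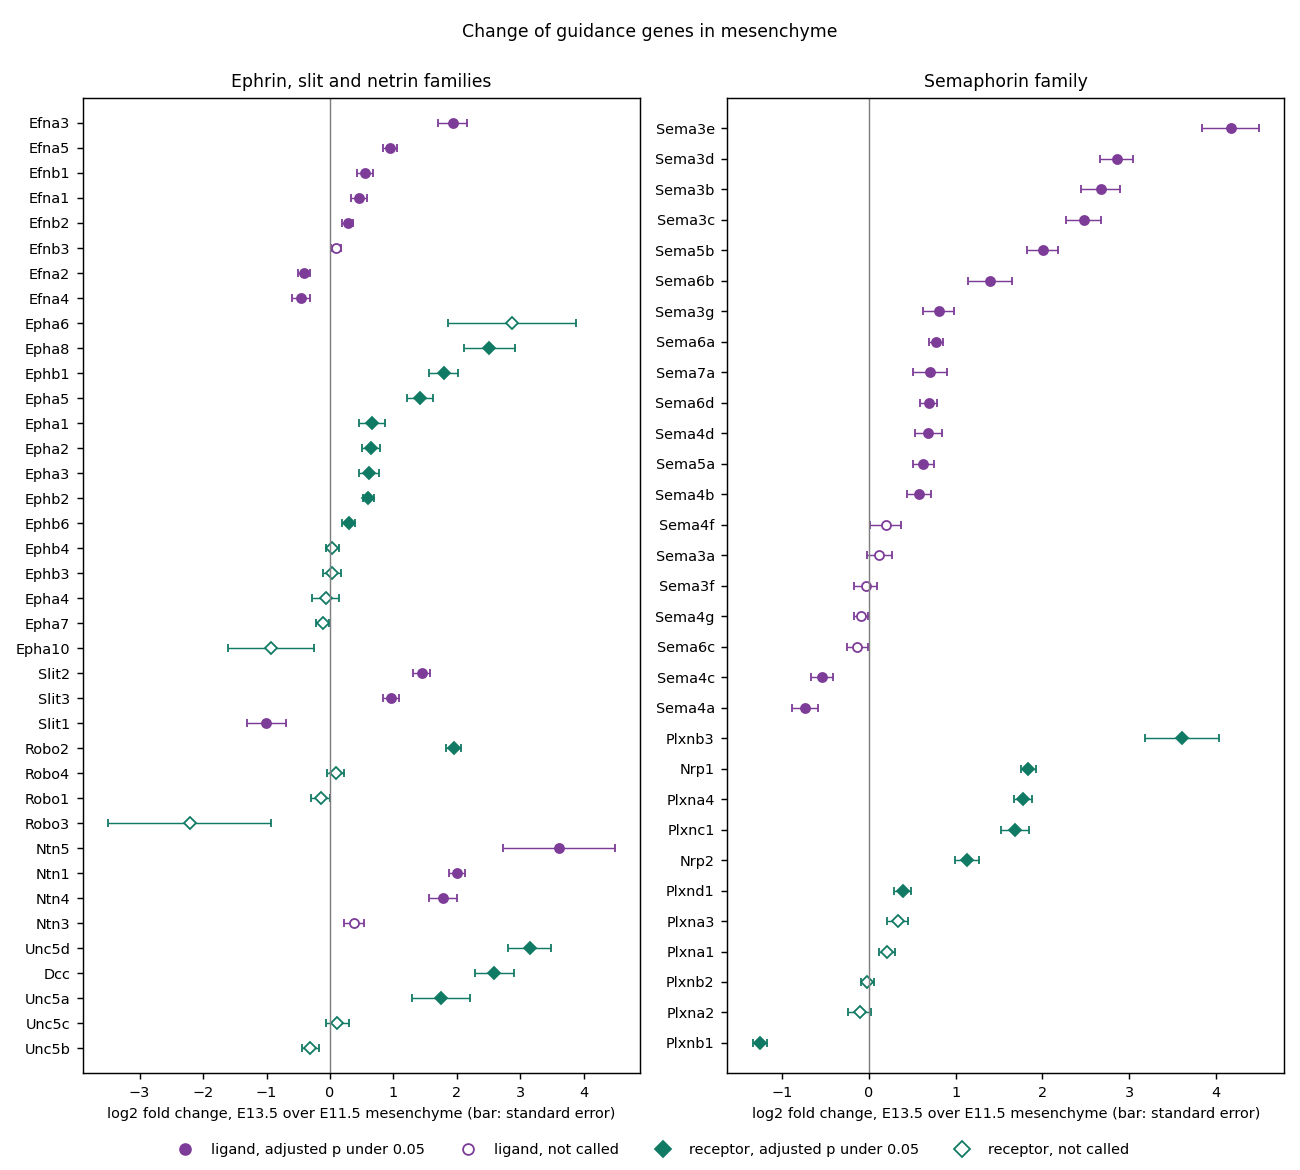
log2 fold change (x axis) of each guidance gene in E13.5 mesenchyme over E11.5 mesenchyme, with the standard error as a bar. Circles are ligands, diamonds are receptors and filled symbols have an adjusted p under 0.05; 41 filled symbols lie to the right of 0, led by Sema3e at 4.17, and 6 lie to the left, led by Plxnb1 at -1.25.

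In the epithelium fewer guidance genes passed the test between stages. In E13.5 epithelium against E11.5 epithelium, 7 were higher and 2 lower of 69, against 5.47% higher and 3.01% lower of 20467 genes tested. The higher genes were the ligands Ntn4, Sema3b, Sema3e, Sema6d and Efna3 and the receptors Plxnc1 and Epha2, and the lower genes were the receptors Epha10 and Robo3. Without E13.5 epithelium replicate 3, 15 were higher and 12 lower, against 17.2% of all genes called in either direction. The count was 0 without E11.5 epithelium replicate 1 (background 0.266%), 0 without E11.5 epithelium replicate 2 (0.243%) and 1 without E13.5 epithelium replicate 1 (0.391%), and none of the 9 calls held in every case.

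Ntn4 was at 5.90, 6.72 and 2.18 FPKM in E13.5 epithelium and 0.968, 1.15 and 1.10 in E11.5 epithelium (2.19 ± 0.40, adjusted p = 0.026). Plxnc1 was at 3.36, 3.596 and 1.95 FPKM in E13.5 epithelium and 0.814, 0.737 and 0.896 in E11.5 epithelium (1.86 ± 0.25, adjusted p = 0.0131). In both genes replicate 3 was the lowest of the E13.5 libraries and still lay above all E11.5 libraries. Sema3e was at 1.21, 1.18 and 1.04 FPKM in E13.5 epithelium and 0.258, 0.211 and 0.499 in E11.5 epithelium (1.81 ± 0.35, adjusted p = 0.0283), and Sema3b at 2.85, 0.943 and 1.39 FPKM at E13.5 and 0.354, 0.499 and 0.594 at E11.5 (1.82 ± 0.44, adjusted p = 0.0484). Sema6d was at 4.26, 4.24 and 3.54 FPKM in E13.5 epithelium and 1.66, 1.76 and 1.79 in E11.5 epithelium (1.21 ± 0.13, adjusted p = 0.00781). The E13.5 values of Sema6d differed little between libraries, whereas those of Sema3b spread over 0.943 to 2.85 FPKM.

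Of the ephrin family, Efna3 was at 7.17, 8.69 and 5.44 FPKM in E13.5 epithelium and 2.92, 2.39 and 2.11 in E11.5 epithelium (1.52 ± 0.23, adjusted p = 0.0176). Epha2, a receptor of Efna1 in many epithelia, was at 4.45, 3.88 and 4.56 FPKM in E13.5 epithelium and 1.65, 1.59 and 2.36 in E11.5 epithelium (1.201 ± 0.21, adjusted p = 0.022). Epha10 fell, at 0.110, 0.076 and 0.083 FPKM in E13.5 epithelium and 0.297, 0.319 and 0.213 in E11.5 epithelium (-1.64 ± 0.33, adjusted p = 0.0329). Robo3, the robo of commissural neurons, had 12, 0 and 0 counts in the E13.5 epithelium libraries and 739, 847 and 416 counts in the E11.5 epithelium libraries (adjusted p = 0.0176). Among the E11.5 epithelium libraries replicate 3 was lowest for both Robo3 and the neuronal markers, and 5 of the 12 neuronal markers were also lower in E13.5 epithelium. The glial, muscle, erythroid, macrophage, mesenchymal and epithelial marker sums were lowest in that replicate too, whereas the endothelial and cartilage and bone sums were highest there. The part of these cell types in the Robo3 result was not tested.

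The last comparison asked whether the tissue difference itself changed between stages, by the interaction of tissue and stage over all 12 libraries. No guidance gene was called of 69 tested with edgeR, against 0.204% of the 22110 genes tested. At an unadjusted p under 0.05 the count was 26 (background 15.0%), DESeq2 called 3 with a positive and 9 with a negative change (background 4.37%), and limma called 0 (background 0.393%). A positive value means a ratio of epithelium to mesenchyme that was larger at E13.5 than at E11.5. The guidance genes nearest to the threshold were Sema4a, with a log2 change of 2.01 ± 0.38 (adjusted p = 0.0577), Sema3e (-2.40 ± 0.48, adjusted p = 0.0672), Ephb1 (-1.88 ± 0.41, adjusted p = 0.0804), Ntn1 (-1.25 ± 0.28, adjusted p = 0.0878), Ephb2 (-0.73 ± 0.16, adjusted p = 0.092) and Dcc (-2.94 ± 0.67, adjusted p = 0.0945). The median was -0.62 over the guidance genes and -0.022 over all genes tested.

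Without E13.5 epithelium replicate 3, 5 guidance genes had a positive and 28 a negative interaction, against 4.20% and 9.21% of 23092 genes tested. The positive ones were Sema4a (2.30 ± 0.23), Plxnb1 (1.53 ± 0.16), Epha1 (1.31 ± 0.25), Sema3f (0.84 ± 0.19) and Sema6d (0.55 ± 0.13). The negative ones were led by Dcc (-3.74 ± 0.49), Epha8 (-3.49 ± 0.61) and Epha5 (-2.64 ± 0.46), and they included Ntn1 (-1.57 ± 0.17), Sema3e (-2.34 ± 0.52), both neuropilins, Slit2 and Slit3. Ntn1 gives an example in levels: it was at 11.2 ± 3.68 FPKM in the epithelial and 12.6 ± 2.04 in the mesenchymal libraries at E13.5, and at 6.46 ± 0.142 in the epithelial and 3.07 ± 0.264 in the mesenchymal libraries at E11.5 (SD, n = 3 each). The number of calls was 1 without E11.5 epithelium replicate 3 (background 0.478%) and 1 without E11.5 mesenchyme replicate 1 (background 0.291%). In the fit without E13.5 epithelium replicate 3, many cell type markers also had a negative interaction. These were 14 of 15 mesenchymal, 11 of 12 endothelial, 9 of 10 cartilage and bone and 8 of 12 neuronal markers. The glial list had 3 of 8, the macrophage and muscle lists 3 of 10 each and the erythroid list 0 of 8. Of the 13 epithelial markers 6 were positive and 0 negative. Their part in the guidance results was not tested.

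Genes that act beside these ligands and receptors were followed through a list of 57 other genes of these pathways, among them co-receptors and intracellular partners. In E11.5 epithelium against E11.5 mesenchyme 9 were higher and 2 lower (background 4.75% and 1.63%). The higher ones were Dpysl3, Dpysl5, Nrcam, Met, Srgap3, Dag1, Rgmb, Draxin and Chn2, and the lower ones Arhgef15 and Flrt3. Dpysl proteins relay semaphorin signals in axons, Draxin is a secreted netrin antagonist and Srgap3 binds robo receptors. In the same comparison 8 of 12 neuronal and 3 of 8 glial markers were higher and 0 lower, and their part in these results was not tested. In E13.5 mesenchyme against E11.5 mesenchyme 27 of the 57 were higher and 8 lower (background 22.0% and 17.0%), with a median log2 fold change of 0.34, against 0.012 over all genes tested. The netrin partners had 8 of 14 higher, among them Dscam, Trim9 and Rgma, and 1 lower, Ptk2. The slit partners had 6 of 10 higher, among them the 3 Srgap genes, and none lower. In E13.5 epithelium against E11.5 epithelium 6 were higher and 2 lower (background 5.47% and 3.01%). In E13.5 epithelium against E13.5 mesenchyme none was called with all libraries (background 1.62% higher and 0.204% lower), and 8 were higher and 20 lower without epithelium replicate 3 (background 12.5% and 15.7%).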

How the data were processed

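RNA of 12 libraries (4 groups, 3 each) was sequenced as 150-base read pairs. Per the submitters' processing notes, reads were trimmed with Cutadapt 1.9 and processed with HISAT2 2.0.4, StringTie 1.3.4d and edgeR on mm10. The deposited table gives estimated counts, whole numbers whose totals exceed the number of read pairs, and the authors' FPKM for each gene. The counting program and its settings are not given in the sources used here, and the count scale means that p-values rest on the spread between libraries. The authors' own comparisons were not used.

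Groups were taken from the sample labels. Counts were tested with edgeR 4.0.16 (filterByExpr, TMM, quasi-likelihood F test) on the 6 libraries of each comparison and all 12 for the interaction, with Benjamini-Hochberg adjustment over all genes tested. The standard error is the absolute log2 fold change divided by the square root of F. Alternatives were DESeq2 1.42.0, limma 3.58.1 on log2(FPKM + 0.5) or log2(FPKM + 0.1), other scaling, no filter, the replicate number as a block, the unnumbered libraries as a covariate, 1 fit over 12 libraries and each library left out. The scripts were tested on simulated data. Named genes were at most 8 per direction and comparison among those called, the most abundant member of each subclass and, at E13.5, the 8 largest changes without epithelium replicate 3, with others given where the text describes their family. The members, gene lists and tests were chosen with earlier results of these data known. Upstream sequences came from RefSeq on GRCm38.p6.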

Additional observations from a re-analysis of the deposited data

How the results depend on the processing

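The number of guidance genes called depended on the processing most in the comparisons with E13.5 epithelium, and the cause was not tested. For the E11.5 tissues (14 calls), DESeq2 gave 23, limma without a filter 7, the replicate block 8, the covariate for unnumbered libraries 34 and a required fold change of 1 on the log2 scale 9, and leaving out 1 library gave 6 to 30. For the E13.5 tissues (1 call), DESeq2 gave 18, the 12-library fit 15 and the covariate 5, whereas no filter, the 3 limma settings and the replicate block gave 0, and leaving out 1 library gave 0 to 48. For the epithelium between stages (9 calls), DESeq2 gave 20, the 12-library fit 21, the covariate 14, no filter 6, limma without a filter 2 and the replicate block 0, and leaving out 1 library gave 0 to 27. For the mesenchyme between stages (47 calls), a required fold change of 1 on the log2 scale gave 25, and leaving out 1 library gave 38 to 46. For the interaction (0 calls), DESeq2 gave 12, the covariate 4 and leaving out 1 library 0 to 33. Replicate numbers are those of the sample labels, and the column names number the epithelium libraries in another order. To look for a pairing, the log count level of each gene, scaled for library size, was taken as a deviation from its group mean. Between libraries with the same label number, the correlation of these deviations ran from -0.126 to 0.11 over 12 pairs. Of these, 1 pair was over 0.1. Some of the pairs joined an E13.5 with an E11.5 library, which came from different embryos. Between the epithelium and mesenchyme libraries without a column number, the correlation of the deviations was 0.172 at E11.5 and 0.006 at E13.5. A block on the column numbers was not fitted, so a pairing of the libraries was not settled. Of 540 alternative values for 36 named-gene results, 405 kept their side of the threshold, 135 no longer passed it and 0 changed direction.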

Other observations

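Robo3 had 256 counts in E11.5 mesenchyme replicate 1, against 4 and 11 in replicates 2 and 3. The neuronal markers stood at 157% of the group's mean level in replicate 1 and at 69.2% and 80.4% in replicates 2 and 3, and their part in the Robo3 value was not tested.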
